A study of Mus musculus with 12 samples.

Results

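The 10 integrin genes Itgam, Itgal, Itgb2, Itga4, Itgb7, Itga5, Itga6, Itgb1, Itgav and Itgb5 were taken by symbol from the 24421 genes of the deposited count tables. All 10 passed the filter on low counts, which left 12164 genes for testing, and the lowest count of any of them in any library was 1090 (Itgal, with siEhd1 in resting cells). RNA was measured in bone marrow-derived macrophages (BMDM), cells grown in culture from the marrow of male C57BL/6J mice that were 8 weeks old. Every culture received an siRNA, either a control (siControl) or one against Ehd1 (siEhd1), and was kept unstimulated (M0, resting) or given lipopolysaccharide (LPS, a bacterial outer membrane molecule that macrophages sense through Toll-like receptor signalling; M1). That made 4 groups of 3 polyA libraries each. The series asks what the endocytic recycling protein EHD1 does in macrophages, with atherosclerosis as its context. How much LPS was given and for how long, which siRNA sequences were used and when RNA was taken after transfection is not stated in the labels. Nor do they say whether replicates came from separate mice or cultures, so the p-values rest on a spread between libraries that may be technical only.

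An integrin is a pair of an alpha and a beta subunit, and the alpha subunit largely decides what the pair binds. On leukocytes the beta 2 subunit (Itgb2) joins alpha M (Itgam) in Mac-1, a receptor for complement fragments, fibrinogen and ICAM-1, and alpha L (Itgal) in LFA-1, which holds on to ICAMs of other cells. Alpha 4 (Itga4) pairs with beta 1 (Itgb1) or beta 7 (Itgb7) and binds VCAM-1, MAdCAM-1 and fibronectin. Alpha 5 and alpha 6 (Itga5, Itga6) pair with beta 1 and bind fibronectin and laminins, and alpha V (Itgav) with beta 5 (Itgb5) binds vitronectin and helps phagocytes take up dying cells. Integrins are taken into endosomes and returned to the surface continually, so RNA levels are not surface levels, and surface protein was not measured in the files used here.

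Library totals ran from 18572725 to 22545272 counts, with 14119 to 14753 genes detected in each library. In resting cells the siEhd1 libraries held 59.2% of the Ehd1 level of the siControl libraries (31.5 ± 2.35 against 53.2 ± 1.18 CPM, counts brought to equal library size with TMM factors; SD, n = 3), and in LPS-treated cells 48.7% (302 ± 18.2 against 620 ± 64.5 CPM), so the knockdown left part of the RNA in place. All 10 macrophage markers listed, among them Adgre1, Csf1r and Cd68, were above 5 CPM in every group. No listed neutrophil marker (of 8 in the tables) or dendritic cell marker (of 7) reached 5 CPM in any group. Of 9 lymphocyte markers only Cd4 did (7.64 CPM in resting siControl cells), with Cd3e and Nkg7 at 0 counts in every group. The labels name no batch, and the resting libraries were deposited apart from the LPS-treated ones, so handling that differed between them cannot be told apart from LPS.

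The RefSeq promoter table (GRCm38.p6) had an entry for 7 of the 10 genes and none for Itgal, Itga6 and Itgb2. The 4 upstream sequences shown belong to the genes with an entry whose RNA moved most with LPS in each direction: Itgam and Itga5 rose, and Itgb5 and Itga4 fell. Each line gives the 250 bases before the RefSeq start on the strand of the gene. Capitals mark GAGGAA, the core bound by PU.1, the master transcription factor of macrophages, or GGGCGG, a box for the general factor Sp1, on either strand (TTCCTC and CCGCCC are the same words on the other strand). The positions are chr7:128062390-128062639 on the plus strand for Itgam, chr15:103366792-103367041 on the minus strand for Itga5, chr2:79255176-79255425 on the plus strand for Itga4 and chr16:33829415-33829664 on the plus strand for Itgb5.
Itgam: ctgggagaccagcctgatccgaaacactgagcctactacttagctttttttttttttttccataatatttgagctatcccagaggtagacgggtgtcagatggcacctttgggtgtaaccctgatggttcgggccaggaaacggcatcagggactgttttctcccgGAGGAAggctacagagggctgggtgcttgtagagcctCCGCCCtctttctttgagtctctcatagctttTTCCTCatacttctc
Itga5: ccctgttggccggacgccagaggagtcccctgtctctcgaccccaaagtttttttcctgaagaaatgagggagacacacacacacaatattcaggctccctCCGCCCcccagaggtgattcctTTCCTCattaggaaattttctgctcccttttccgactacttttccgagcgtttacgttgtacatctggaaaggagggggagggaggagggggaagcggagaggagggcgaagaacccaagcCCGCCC
Itga4: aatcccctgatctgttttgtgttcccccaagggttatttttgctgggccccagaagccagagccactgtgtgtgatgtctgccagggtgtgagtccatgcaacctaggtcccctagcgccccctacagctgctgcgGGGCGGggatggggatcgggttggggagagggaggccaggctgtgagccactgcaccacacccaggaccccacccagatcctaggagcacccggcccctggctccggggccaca
Itgb5: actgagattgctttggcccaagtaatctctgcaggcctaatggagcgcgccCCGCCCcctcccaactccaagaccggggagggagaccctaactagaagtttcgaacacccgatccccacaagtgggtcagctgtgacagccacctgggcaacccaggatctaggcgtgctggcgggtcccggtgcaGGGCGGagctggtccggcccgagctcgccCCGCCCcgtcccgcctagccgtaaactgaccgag

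The Itgam stretch holds GAGGAA words that begin 84 and 15 bases before the start, the second on the opposite strand, and Itga5 holds a copy 127 bases before it. Itga4 and Itgb5 hold no GAGGAA and carry GGGCGG, 1 copy in Itga4 and 3 in Itgb5. Itgam and Itga5 carry GGGCGG too, and Itgav, which fell with LPS, holds GAGGAA, so the words do not divide the genes by direction. Over the 7 genes with an entry, GAGGAA was found in 4 (Itga5, Itgam, Itgav and Itgb1) and GGGCGG in 5 (Itga4, Itga5, Itgam, Itgb1 and Itgb5). Among all 32851 promoters of the table, cut to the same 250 bases, 23.3% held GAGGAA and 32.7% held GGGCGG. The TATA box TATAAA (12.4% of all promoters), the AP-1 word TGANTCA (6.75%), an NF-kB word (1.41%) and an interferon response word (2.98%) were searched on both strands too and matched in 0 of the 7. A match is a string of letters and not a measured site. No factor binding was measured.

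LPS moved integrin RNA in both directions (edgeR's quasi-likelihood test, adjusted p under 0.05 over all genes tested). With siControl, 4 of the 10 rose (Itgal, Itgam, Itga5 and Itgb1), 5 fell (Itga6, Itgb5, Itga4, Itgav and Itgb7) and Itgb2 did not pass. Over all genes tested, 34.8% rose and 34.0% fell in this comparison. The median absolute log2 fold change was 0.94 for the 10 integrins and 0.40 for all genes. With siEhd1, 3 rose (Itgal, Itgam and Itga5) and 5 fell (Itga6, Itgb5, Itga4, Itgav and Itgb2), beside 32.9% and 34.0% of all genes, while Itgb1 and Itgb7 did not pass. Scaling by library totals alone, without composition factors, moved the median of all genes by -0.20 (siControl) and -0.22 (siEhd1) on the log2 scale and turned the split of calls into 2826 higher and 5860 lower with siControl and 2499 and 6244 with siEhd1. Itgb1, Itgb2 and Itgb7 are the integrins whose LPS calls that scaling changed.

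**Figure D1:**
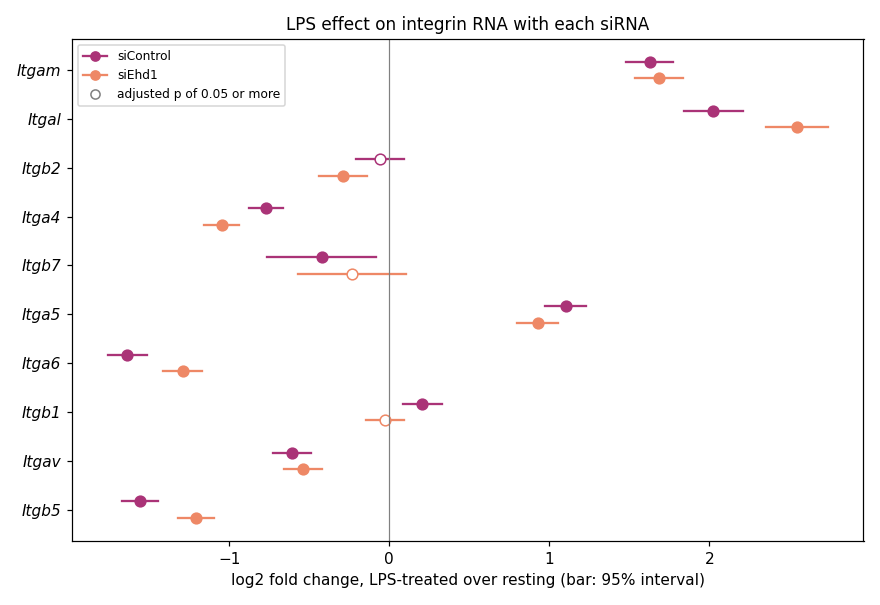
Log2 fold change of LPS-treated over resting cells (x axis) for each integrin gene (y axis), with siControl and with siEhd1. Points are estimates, bars 95% intervals, and open points did not pass an adjusted p of 0.05. Itgal, Itgam and Itga5 lie to the right with both siRNAs, Itga6, Itgb5, Itga4 and Itgav to the left.

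Of the Mac-1 and LFA-1 subunits, the alpha subunits rose with LPS and the shared beta subunit did not. Per library, in order of replicate number here and below, Itgam stood at 1012, 1166 and 1182 CPM in resting siControl cells and at 3562, 3647 and 3160 CPM after LPS. Every LPS library lay above every resting library. The rise was 3.09-fold (log2 1.63, SE 0.07, adjusted p = 3.1e-14), and with siEhd1 it was 3.22-fold (log2 1.69, SE 0.07), from 1087, 1123 and 1005 to 3422, 3523 and 3395 CPM.

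Itgal made the largest rise of the 10 as a fold. Resting siControl cells held 93.9, 81.8 and 83.2 CPM and LPS-treated ones 399, 347 and 307 CPM. The groups stood far apart, and within the LPS group the spread was wide (SD 45.9 CPM). The fold change was 4.07 (log2 2.02, SE 0.09, adjusted p = 3.3e-12). With siEhd1 the resting libraries were lower, at 46.6, 50.05 and 52.5 CPM, and the LPS-treated ones held 271, 306 and 294 CPM. That rise was 5.84-fold (log2 2.55, SE 0.09).

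Itgb2, the partner that both of these alpha subunits need, did not pass with siControl and fell with siEhd1. Its siControl libraries held 1217, 1327 and 1456 CPM at rest and 1213, 1364 and 1266 CPM after LPS. These ranges overlap, and the log2 change was -0.06 with a 95% interval of -0.21 to 0.09. With siEhd1 it fell from 1733, 1711 and 1511 to 1329, 1415 and 1310 CPM, with no overlap (log2 -0.29, SE 0.07, adjusted p = 0.0013). Scaled by library totals alone, the siControl change was -0.25 (adjusted p = 0.0017, within 0.0017 to 0.89 over 13 alternatives), which passed.

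Of alpha 4 and beta 7, the pair that binds VCAM-1 and MAdCAM-1, alpha 4 was lower after LPS with both siRNAs. Beta 7 was called lower with siControl only. Itga4 held 273, 267 and 277 CPM in resting and 158, 158 and 163 CPM in LPS-treated siControl libraries. Both groups are tight, and no library of either lies near the other. The level fell by 0.77 on the log2 scale (SE 0.05, adjusted p = 2.4e-11), to 0.585 of the resting level. With siEhd1 it fell from 281, 306 and 297 to 149, 135 and 143 CPM (log2 -1.05, SE 0.05).

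Itgb7 had the widest spread of the 10 among LPS-treated siControl libraries, with an SD of 23.6% of its mean. In resting siControl libraries that figure was 7.25%, below the 8.98% of Itgb2. It held 112, 96.8 and 106 CPM in resting siControl libraries and 57.6, 93.2 and 83.7 CPM after LPS. The groups do not overlap, but replicate 1 after LPS lies far below the other two. The fall of 0.42 (SE 0.15, adjusted p = 0.031) did not pass in 5 of 13 alternatives (adjusted p 0.0041 to 0.095), among them the fits without resting siControl replicate 1 (0.095) or 3 (0.072), and was 0.24 without LPS-treated siControl replicate 1. With siEhd1 the log2 change was -0.23 (SE 0.15, adjusted p = 0.19), from 141, 127 and 116 to 110, 111 and 105 CPM. It passed with library totals alone (-0.46, adjusted p = 0.020) and in a fit of these groups only (adjusted p = 0.0019; 0.0019 to 0.43 over 13 alternatives).

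Among the beta 1 integrins of the matrix, the fibronectin receptor subunit rose and the laminin receptor subunit fell. Itga5 went from 218, 227 and 217 CPM at rest to 432, 483 and 507 CPM with LPS and siControl. It rose 2.15-fold (log2 1.10, SE 0.06, adjusted p = 1.5e-12) and 1.90-fold with siEhd1 (log2 0.93, SE 0.06), from 272, 273 and 254 to 488, 540 and 491 CPM. Itga6 went the other way in the same libraries. It dropped from 302, 292 and 302 CPM to 86.5, 100 and 101 CPM with siControl, a level 3.11-fold below the resting one (log2 -1.64, SE 0.06, adjusted p = 9.3e-16), and from 276, 303 and 295 to 119, 120 and 118 CPM with siEhd1 (log2 -1.29, SE 0.06).

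Itgb1, the shared beta subunit of these receptors, moved little. Its siControl libraries held 546, 549 and 595 CPM at rest and 679, 655 and 617 CPM with LPS. The LPS libraries were all higher, by a log2 change of 0.21 (SE 0.06, adjusted p = 0.0035). With library totals alone the change was 0.01 (adjusted p = 0.86; 0.0010 to 0.86 over 13 alternatives), so the call rests on the scaling. With siEhd1 the libraries overlapped, 675, 736 and 654 CPM against 683, 675 and 669 CPM (log2 -0.03, 95% interval -0.15 to 0.09), and with library totals alone the change was -0.25 (adjusted p = 1.6e-04; 1.6e-04 to 0.87 over 13 alternatives).

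The alpha V beta 5 pair fell in both of its subunits. Itgb5 stood at 628, 612 and 661 CPM in resting siControl libraries and at 219, 220 and 206 CPM after LPS. This 2.94-fold drop (log2 -1.56, SE 0.05, adjusted p = 6.4e-16) was close in size to that of Itga6. With siEhd1 Itgb5 went from 543, 574 and 566 to 234, 256 and 240 CPM (log2 -1.21, SE 0.05). Itgav fell less, from 187, 185 and 183 to 111, 123 and 130 CPM with siControl (log2 -0.61, SE 0.06, adjusted p = 6.1e-09) and from 215, 226 and 217 to 158, 152 and 143 CPM with siEhd1 (log2 -0.54, SE 0.06).

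**Figure D2:**
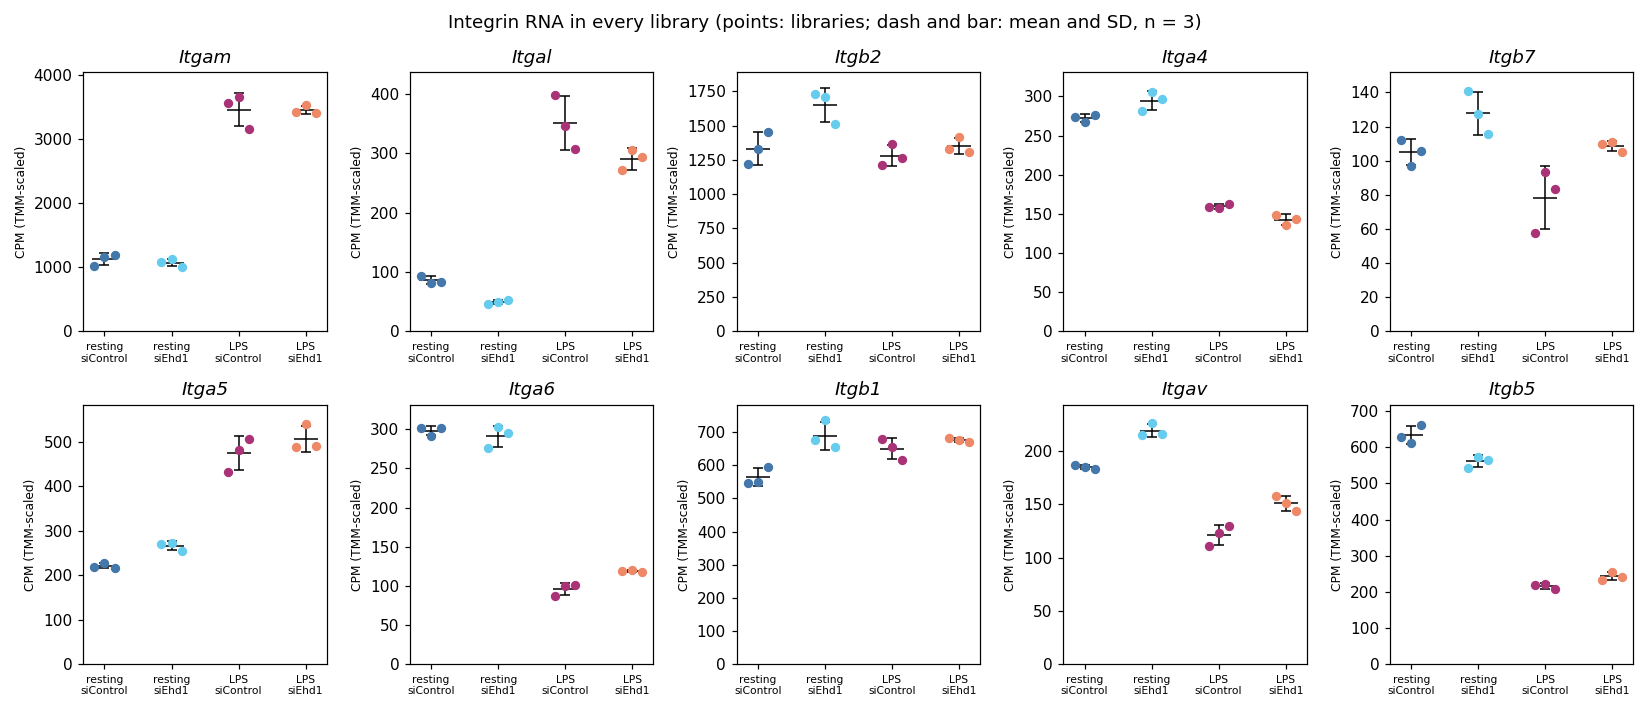
CPM with TMM scaling (y axis, linear from 0) of each integrin gene in each library, by group (x axis). Points are libraries, dashes with bars the mean and SD of 3. The resting siControl and siEhd1 libraries of Itgal do not overlap (means 86.3 and 49.7 CPM), and the LPS-treated siControl libraries of Itgb7 are spread out (SD 18.4 CPM).

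In resting cells 6 of the 10 integrins were called with siEhd1, and apart from Itgal the largest change was 1.24-fold (Itgb2). Each state has a single siEhd1 group, so an effect of less Ehd1 RNA cannot be told apart from other effects of the siRNA. Itgb2, Itgb1, Itga5 and Itgav rose, Itgal and Itgb5 fell, and Itgam, Itga4, Itga6 and Itgb7 did not pass. Of all genes tested, 14.0% rose (1704) and 14.2% fell (1728) in this comparison. The lower count was 1148 without siControl replicate 1. This comparison and the LPS comparison with siControl share the resting siControl libraries. The median log2 fold change was 0.18 for the integrins and -0.02 for all genes, and the median absolute change 0.26 and 0.15.

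Itgal fell to 57.6% of its siControl level. Its siEhd1 libraries (46.6 to 52.5 CPM) all lay well below the lowest siControl library (81.8 CPM), and the log2 change was -0.80 (SE 0.09, adjusted p = 7.7e-06). It ranked at 300 by p among the 12164 genes. In the same libraries 6 of 10 macrophage markers also fell, beside 14.2% of all genes. Fcgr1 was at -0.80 (SE 0.05) and Mertk at -0.60 (SE 0.07). The summed level of the list was 23369 to 24214 CPM with siControl and 19313 to 20817 CPM with siEhd1. After LPS 1 of the 10 markers was called lower with siEhd1, beside 4.10% of all genes. The part of these markers in the fall of Itgal was not tested. In bulk RNA, fewer cells that carry a transcript and less of it per cell cannot be told apart.

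Itgb5 dropped in the same direction by far less. Its siEhd1 libraries (543 to 574 CPM) lay below the siControl ones (612 to 661 CPM), a log2 change of -0.18 (SE 0.05, adjusted p = 0.017). The call was lost without siControl replicate 3 (adjusted p = 0.077) and without siEhd1 replicate 1 (0.085), within 0.0081 to 0.085 over 14 alternatives.

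The beta subunits Itgb2 and Itgb1 and the alpha subunits Itga5 and Itgav rose by similar amounts. Itgb2 went from a mean of 1333 ± 120 to 1652 ± 122 CPM (SD, n = 3), 124% of siControl, with a log2 change of 0.31 (SE 0.07, adjusted p = 0.0027). Itgb1 went from 563 ± 27.2 to 688 ± 42.6 CPM, a log2 change of 0.29 (SE 0.06, adjusted p = 8.3e-04). For Itga5 the log2 change was 0.27 (SE 0.06, adjusted p = 0.0024) and for Itgav 0.24 (SE 0.06, adjusted p = 0.0025). In each of these 4 genes every siEhd1 library was above every siControl library, and each call held in all 14 alternatives run. How many of all genes separate in this way was not counted, so the separation adds no support to the calls.

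The 4 genes that did not pass are of different kinds. Itgam and Itga6 had overlapping groups and intervals near 0, -0.21 to 0.08 for Itgam (log2 -0.06) and -0.15 to 0.08 for Itga6 (log2 -0.03). Itga4 and Itgb7 were above siControl in every library. Itga4 had a log2 change of 0.11 (SE 0.05, adjusted p = 0.0997), which passed with library totals alone (0.14, adjusted p = 0.045; 0.045 to 0.29 over 14 alternatives). Itgb7 had 0.29 (SE 0.15, adjusted p = 0.19), which passed in a fit of these groups only (adjusted p = 0.0096; 0.0096 to 0.42 over 14 alternatives).

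**Figure D3:**
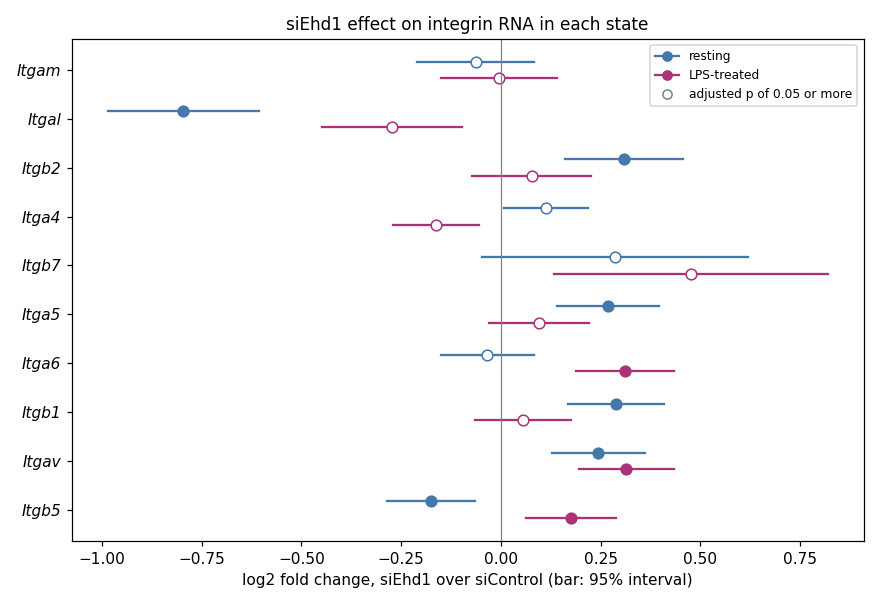
Log2 fold change of siEhd1 over siControl (x axis) for each integrin gene (y axis) in resting and in LPS-treated cells. Points are estimates, bars 95% intervals, and open points did not pass an adjusted p of 0.05. Itgal lies farthest left at rest (-0.80), and Itgav is to the right in both states (0.24 and 0.31).

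After LPS, 7 of the 10 integrins were not called with siEhd1. Itga6, Itgav and Itgb5 rose and edgeR called 0 lower (2 had an unadjusted p under 0.05, Itgal and Itga4). DESeq2 called these 2 lower and limma-voom called Itga4. Of all genes tested, 4.44% rose (540) and 4.10% fell (499). Those counts were 304 and 303 without siEhd1 replicate 1.

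Itgav was the only member called in both states in the same direction. After LPS its siEhd1 libraries held 158, 152 and 143 CPM against 111, 123 and 130 CPM (log2 0.31, SE 0.06, adjusted p = 0.0012), with no overlap, and the call held in all 14 alternatives. Itga6 was at 119, 120 and 118 CPM against 86.5, 100 and 101 CPM, again with no overlap (log2 0.31, SE 0.06, adjusted p = 0.0017), and also held in all 14. The SD of Itga6 over these siEhd1 libraries was 0.782 CPM, the smallest of any of the 10 genes in any group.

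Itgb5 passed narrowly. Its siEhd1 libraries, at 234, 256 and 240 CPM, were above the siControl ones, at 219, 220 and 206 CPM, and the log2 change was 0.18 (SE 0.05, adjusted p = 0.048). It did not pass in 10 of 14 alternatives, including each of the 6 fits that left out 1 library (adjusted p 0.055 to 0.20) and the fit with no filter on low counts (0.074). The adjusted p ranged from 0.014 to 0.20 over the 14.

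Itgal and Itga4, lower in every siEhd1 library than in any siControl library after LPS, missed the threshold by little. Itgal held 271, 306 and 294 CPM against 399, 347 and 307 CPM (log2 -0.27, SE 0.08, adjusted p = 0.053). It passed under DESeq2 (0.029), with library totals alone (0.038) and without siControl replicate 3 (0.0053), within 0.0053 to 0.21 over 14 alternatives. Itga4 held 149, 135 and 143 CPM against 158, 158 and 163 CPM (log2 -0.16, SE 0.05, adjusted p = 0.054) and passed under DESeq2 (0.033) and limma-voom (0.0497), within 0.033 to 0.22 over 14 alternatives.

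Itgb7 had the largest log2 difference after LPS, 0.48 (SE 0.15), and did not pass (adjusted p = 0.097). All of its siEhd1 libraries (105 to 111 CPM) were above the siControl ones (57.6 to 93.2 CPM). It passed under DESeq2 (0.029) and without siControl replicate 1 (log2 0.30, adjusted p = 0.023) or 2 (0.62, 0.025), within 0.023 to 0.22 over 14 alternatives. The estimate thus ran from 0.30 to 0.62 with the choice of siControl libraries. Itgam (log2 0.00, 95% interval -0.15 to 0.14), Itgb1 (0.06, -0.06 to 0.18), Itgb2 (0.08, -0.07 to 0.23) and Itga5 (0.09, -0.03 to 0.22) had overlapping groups.

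The siEhd1 effect itself differed between states for 4 of the 10, tested as an interaction. Ehd1 rose with LPS (log2 3.54, SE 0.08, with siControl), so resting and LPS-treated cells did not start from the same Ehd1 level. LPS-treated siEhd1 cells still held 302 CPM of Ehd1, beside 53.2 CPM in resting siControl cells. The log2 effect of siEhd1 was higher after LPS than at rest for Itgal, Itga6 and Itgb5 and lower for Itga4. Of all genes tested, 3.12% had a higher effect after LPS (379) and 2.93% a lower one (356). Without resting siEhd1 replicate 1 these counts were 243 and 210. The lower count was also 209 without resting siControl replicate 1, 221 without resting siEhd1 replicate 2, and 235 and 236 without LPS-treated siEhd1 replicate 1 and 3.

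For Itgal the effect went from -0.80 at rest to -0.27 after LPS, a difference of 0.52 (SE 0.12, adjusted p = 0.017). Itgb5 changed direction, from -0.18 to 0.18, a difference of 0.35 (SE 0.08, adjusted p = 0.0071) that held in all 19 alternatives. Itga6 went from -0.03 to 0.31 (difference 0.35, SE 0.08, adjusted p = 0.013). Without resting siEhd1 replicate 1 the calls of Itgal (adjusted p = 0.056; 4.9e-04 to 0.056 over 19 alternatives) and Itga6 (0.051; 0.0022 to 0.051) were lost. Itga4 went from 0.11 to -0.16 (difference -0.28, SE 0.07, adjusted p = 0.025), and this call was lost in 6 of 19 alternatives (adjusted p 0.0045 to 0.077), 5 of them without resting siControl replicate 1 or 2, resting siEhd1 replicate 2 or LPS-treated siEhd1 replicate 2 or 3 (0.051 to 0.070).

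For Itgb1 and Itgb2, called at rest and not after LPS, the difference did not pass. It was -0.23 (SE 0.08, adjusted p = 0.10) for Itgb1 and -0.23 (SE 0.10, adjusted p = 0.20) for Itgb2. With library totals alone that of Itgb1 was -0.26 and passed (adjusted p = 0.029; 0.029 to 0.26 over 19 alternatives). Itga5 had -0.17 (SE 0.09, adjusted p = 0.28).

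A 7-base word, GCCTTGT, is common in the 3′ UTRs of genes that were lower with siEhd1 in these libraries, and its sites in the integrins are shown because Itgal, the integrin with the deepest fall with siEhd1, holds it. Of 11237 tested genes with an annotated 3′ UTR (GENCODE vM21), 14.5% held the word. It was in 28.4% of those called lower and 8.96% of those called higher in resting cells, and in 50.5% and 10.5% after LPS. The word was picked out on these same libraries, and UTR length was not taken into account. These shares are therefore a description and not a test. Among the integrins only Itgal and Itga4 held it, 2 of 10. Capitals mark the word within 11 bases on either side, on the strand of the transcript. The first Itgal site begins at base 232 of the UTR in 3 transcripts, the second at base 602 in the UTR of another transcript, and the Itga4 site at base 3826 of a UTR of 6508 bases.
Itgal, first site: tctgctagcctGCCTTGTccctctgagag
Itgal, second site: ttccacttcatGCCTTGTcctgctgcccc
Itga4: actgggtctaaGCCTTGTacttcaaaatt

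Itgal was called lower at rest (log2 -0.80) and had -0.27 after LPS, while Itga4 had 0.11 at rest and -0.16 after LPS, with no call in either state. Itgb5, the other integrin called lower at rest, does not hold the word in its annotated 3′ UTRs. The part of the word in the level of Itgal was not tested.

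Levels of different genes can be set side by side only per length, so CPM was divided by the exon length of each gene in kb. In resting siControl cells Itgb2 was the most abundant RNA among the 10 integrins (449 ± 40.3 CPM per kb, SD, n = 3). It was followed by Itgam (227), Itgb5 (187), Itgb1 (148), Itga6 (68.4), Itga5 (50.4), Itgb7 (39.1), Itga4 (27.9), Itgav (26.3) and Itgal (13.5 CPM per kb). No neighbours in that order overlapped between libraries. With siEhd1 at rest Itgb1 (180) and Itgb5 (165) changed places, as did Itgav (31.1) and Itga4 (30.2), the latter with overlapping libraries.

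LPS reordered the list. In LPS-treated siControl cells Itgam led with 702 ± 52.8 CPM per kb, ahead of Itgb2 (431), Itgb1 (170) and Itga5 (108). Itgb5 (63.5) and Itgal (55.0) came next with overlapping libraries, and their order turned when the longest transcript served as the length. Itgb7 (29.1) overlapped Itga6 (22.0), and Itgav (17.2) overlapped Itga4 (16.3 CPM per kb). With siEhd1 after LPS the order was the same and no neighbours overlapped.

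The make-up of the alpha and beta pools shows the same exchange. Over the 6 alpha genes, Itgam made up 54.9% ± 2.32 (SD, n = 3) of the summed CPM per kb in resting siControl cells and 76.2% ± 1.65 after LPS. The share of Itga6 went from 16.6% ± 0.905 to 2.39% ± 0.281, that of Itga4 from 6.75% to 1.78% and that of Itgav from 6.36% to 1.88%. Itga5 had 12.2% and 11.8%, while the sum of these 6 genes went from 414 ± 17.6 to 920 ± 50.7 CPM per kb. Other alpha genes are outside this pool, among them Itgax, which fell from 358 to 95.2 CPM with LPS and siControl. The shares and the rise of the sum hold for the 6 genes only. Itgal went from 3.28% to 5.97%, and at rest it was 1.88% with siEhd1.

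Over the 4 beta genes the sum went the other way, from 823 ± 52.1 to 694 ± 31.7 CPM per kb with siControl. Itgb5 shrank from 22.8% ± 0.871 to 9.15% ± 0.399 of it, while Itgb2 went from 54.5% to 62.1% and Itgb1 from 17.96% to 24.6%. At rest with siEhd1, Itgb5 held 17.5% ± 1.17 and Itgb2 58.5% ± 1.40. Shares within a pool depend on each other and were not tested; 3 libraries against 3 cannot give an exact permutation p below 0.10.

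**Figure D4:**
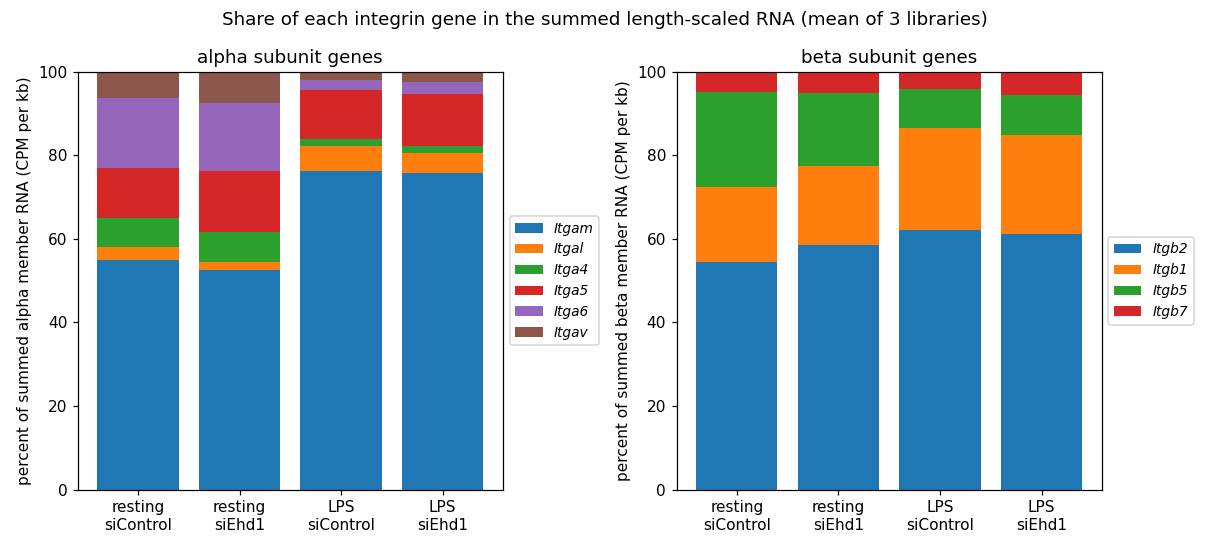
Share of each gene (y axis, percent) in the summed CPM per kb of the 6 alpha subunit genes (left) and the 4 beta subunit genes (right), by group (x axis, mean of 3 libraries). Itgam grows from 54.9% to 76.2% of the alpha pool with LPS and siControl, and Itgb5 shrinks from 22.8% to 9.15% of the beta pool. Itgax is not in the alpha pool.

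Ratios of alpha to beta RNA per kb within pairs are given as a description, with no test. Itgam over Itgb2 was 0.507 ± 0.0207 (SD, n = 3) at rest with siControl and 1.63 ± 0.133 after LPS, so Mac-1 alpha RNA went from below to above that of its partner. With siEhd1 the resting ratio was 0.392 ± 0.0119, below every siControl library; Itgb2 rose there and Itgam did not pass. Itgal over Itgb2 was 0.0304 at rest and 0.128 after LPS with siControl, and 0.0141 and 0.1001 with siEhd1. Itgb2 also pairs with Itgax and Itgad.

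Among the beta 1 partners, Itga5 over Itgb1 went from 0.342 ± 0.0217 to 0.638 ± 0.0811 with LPS and siControl, and Itga6 over Itgb1 from 0.464 ± 0.0199 to 0.129 ± 0.0163. With siEhd1 at rest Itga6 over Itgb1 was 0.371 ± 0.0208, and Itga5 over Itgb1 was 0.337 ± 0.0138. Itgav over Itgb5 was 0.141 ± 0.00671 at rest and 0.272 ± 0.0293 after LPS with siControl, and 0.188 ± 0.00346 and 0.299 ± 0.0219 with siEhd1. Itga4 over Itgb7 was 0.716 ± 0.0438 and 0.584 ± 0.152 with siControl, and 0.639 ± 0.0805 and 0.360 ± 0.0222 with siEhd1.

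Other integrin subunits were mostly scarce. Of 17 further subunit genes 9 passed the filter, and only Itgax, Itgb3 and Itga9 reached 5 CPM at rest. With LPS and siControl 3 of the 9 rose and 5 fell (3 and 4 by DESeq2), where 34.8% of all genes rose and 34.0% fell. Apart from Itgb3 and Itgax, those that fell were under 1 CPM in both groups. A scarce gene can pass the filter through the group where it is high, so these counts are a description only. Itga1, a collagen receptor subunit, rose from 0.688 to 23.4 CPM (log2 5.08, SE 0.14), and Itgb8 from 0.454 to 6.40 CPM. Itgb3, the other main partner of alpha V, fell from 15.7 to 0.279 CPM (log2 -5.79, SE 0.19), and Itgax, alpha X of the beta 2 family, from 358 to 95.2 CPM (log2 -1.91, SE 0.19). With siEhd1 at rest Itgb3 rose (log2 0.32, SE 0.09, adjusted p = 0.015) along with Itga8, at or below about 1 CPM, and 0 of 9 were lower (0 at an unadjusted p under 0.05, 0 by DESeq2). After LPS edgeR called 0 of 9 in either direction, with 0 at an unadjusted p under 0.05 and 0 by DESeq2.

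Genes that switch integrins on and tie them to actin were counted as a list of 20 tested. At rest 5 rose with siEhd1, with Actn1 (alpha-actinin, an actin crosslinker; log2 0.42, SE 0.07), Flna (filamin; 0.29, SE 0.06) and Vcl (vinculin; 0.47, SE 0.11) leading by p. The share of all genes that rose there was 14.0%. None of the 20 fell by edgeR, at an unadjusted p under 0.05 or by DESeq2. The list median was 0.11 beside -0.02 for all genes. After LPS Actn1 rose (0.33, SE 0.07) and Lims1 fell (-0.18), beside 4.44% and 4.10% of all genes. LPS itself raised 8 and lowered 9 of the 20 with siControl, near the 34.8% and 34.0% of all genes, with Fermt3, the kindlin of blood cells, at 0.66 (SE 0.06) and Rassf5 at -0.95 (SE 0.07).

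Of 24 adhesion signalling genes, 6 rose and 3 fell with siEhd1 at rest, beside 14.0% and 14.2% of all genes. Cyth1, a factor that binds the beta 2 tail, had the smallest p (log2 -0.74, SE 0.06, adjusted p = 1.8e-08), while Cdc42 (0.32) and Ptk2 (0.39), the focal adhesion kinase, rose. After LPS 4 fell, among them Cyth1 (-0.27), Crk (-0.20) and Fgr (-0.46), and edgeR called 0 higher (2 at an unadjusted p under 0.05, 2 by DESeq2). Of all genes 4.44% rose and 4.10% fell after LPS. LPS with siControl raised 16 and lowered 7 of the 24, beside 34.8% and 34.0% of all genes. Src, a kinase that acts downstream of bound integrins, went from 12.6 to 122 CPM (log2 3.28, SE 0.07), and Arhgap25 from 315 to 93.3 CPM (log2 -1.76, SE 0.07).

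Of 17 integrin ligands and counter-receptors tested, 2 rose and 4 fell with siEhd1 at rest, a share near that of all genes (14.0% and 14.2%). Mfge8, the bridge between dying cells and alpha V integrins, fell from 359 to 253 CPM (log2 -0.51, SE 0.06, adjusted p = 3.6e-06), and after LPS it rose from 147 to 187 CPM (0.35, SE 0.06, adjusted p = 0.0012). The difference between states was 0.85 (SE 0.09, adjusted p = 9.1e-06). Like Itgb5, Mfge8 was called lower at rest and higher after LPS. The Itgb5 call after LPS did not pass in 10 of 14 alternatives, and its resting call did not pass in 2 of 14. Itgav, the partner of Itgb5, was called higher in both states. C3, whose fragment iC3b is a ligand of Mac-1, fell at rest with siEhd1 (log2 -0.71, SE 0.10). With LPS and siControl 7 of 17 rose and 5 fell, also near the share of all genes (34.8% and 34.0%). C3 went from 80.6 to 2110 CPM, Icam1, the counter-receptor of LFA-1 and Mac-1, from 77.5 to 373 CPM (log2 2.27, SE 0.06), and Fn1, fibronectin, from 17.2 to 3.04 CPM.

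Among 14 membrane partners, 4 rose with siEhd1 at rest and 3 after LPS, where 14.0% and 4.44% of all genes rose. Cd9, a tetraspanin that sits beside integrins, rose in both states (log2 0.38, SE 0.06, and 0.39, SE 0.07). By edgeR 0 of 14 fell at rest (2 at an unadjusted p under 0.05, 0 by DESeq2) and 0 after LPS (0 and 0). LPS with siControl raised 7 and lowered 6 of the 14 (34.8% and 34.0% of all genes), with Cd9 down from 392 to 90.8 CPM.

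Beside these changes, genes used as markers of other cells moved in places. Kdr, an endothelial marker, stood at 24.3 CPM in resting siControl cells and 14.6 CPM with siEhd1, and the summed level of the 9 stromal and endothelial markers was 28.0 to 28.6 CPM and 15.1 to 21.8 CPM in these groups. Ppbp, of a list of 9 platelet, red cell and mast cell markers, went from 0.161 to 26.7 CPM with LPS and siControl, while Gp1bb, Hbb-bs, Mcpt4 and Fcer1a were at 0 counts in every group. The summed level of that list ran from 0.570 to 0.572 CPM at rest and from 19.0 to 33.8 CPM after LPS with siControl, and from 0.255 to 0.555 CPM and from 27.4 to 37.3 CPM with siEhd1. The part of such cells in the integrin changes was not tested.

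Over the 4 group means, the genes most like each integrin were sought among 8808 genes with at least 5 CPM in every group, by the root mean square (RMS) difference of centred log2 CPM. Itgal was nearest to Ifi47 (0.0722) and Gm12250 (0.0874). Itgam was nearest to Fth1 (0.0266) and Il13ra1 (0.0266) and Itga4 to Anxa9 (0.0190) and Dock10 (0.0452). Ahrr was at 0.0301 from Itga5 and Lmo2 at 0.0560 from Itga6. Itgav was nearest to Stard4 (0.0286) and Prpsap2 (0.0321), and Itgb5 to Cipc (0.0268) and Rassf3 (0.0318). Itgb1 was nearest to Nolc1 (0.00938) and Rabggtb (0.00944), Itgb2 to Enoph1 (0.0149) and Pus7 (0.0176), and Itgb7 to Csrp1 (0.0401) and Folr2 (0.0486). The nearest pair of integrins was Itga6 with Itgb5 (RMS difference 0.0816). With 4 group means such nearness is a description only.

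All 10 genes are protein coding, on GRCm38 (GENCODE vM21). Itgam (7:128062640-128118491) and Itgal (7:127296260-127335138) lie on the plus strand of chromosome 7, and Itga4 (2:79255426-79333123), Itga6 (2:71745616-71858416) and Itgav (2:83724397-83806916) on the plus strand of chromosome 2. Itga5 (15:103344286-103366763) and Itgb7 (15:102215995-102231944) lie on the minus strand of chromosome 15. The RefSeq start lies upstream of the GENCODE one for Itga5 and inside the GENCODE gene for Itgb7. Itgb1 (8:128685654-128733200), Itgb2 (10:77530252-77565708) and Itgb5 (16:33829665-33949338) are on plus strands. Itgam shares 210 exon bases with Gm49368 on the same strand and Itga4 shares 127 with Cerkl on the opposite strand. No source used here gives the strand setting of the counting, so reads in those stretches are uncertain.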

How the data were processed

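The deposited values are raw counts for 24421 gene symbols, in a table of resting and a table of LPS-treated libraries. The submitters' processing notes name STAR 2.7.6a, featureCounts 2.20.0, Trim Galore 0.6.3, cutadapt, FastQC 0.10.1, R 4.4.2 and DESeq2 1.46.0, and the build mm10. The annotation, strand setting and treatment of multi-mapping reads: not given in the sources used here.

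Here counts were tested with edgeR 4.0.16 (R 4.3.3). Genes were kept by filterByExpr (minimum count 10, minimum total 15), which left 12164. All 12 libraries entered 1 quasi-likelihood fit of group means (TMM factors, robust dispersions, 8 residual degrees of freedom, common biological coefficient of variation 0.0588). F test p-values were adjusted by Benjamini-Hochberg over all tested genes, with a threshold of 0.05. SE is the size of the log2 change over the root of F, and 95% intervals use the moderated degrees of freedom. CPM used TMM factors. CPM per kb used the union of exons of coding transcripts (GENCODE vM21, GRCm38); the lengths the authors counted over are unknown here. Within groups, library pairs differed beyond sampling noise (chi-square over its degrees of freedom, 3.10 to 24.8, highest for LPS-treated siControl replicates 1 and 3), and none were identical.

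The members and gene lists were chosen with earlier results of these data known. All 10 members are named. From other lists, up to 3 called genes per direction with the smallest p and at least 5 CPM in a compared group may be named; marker genes at 0 counts, and Itga8, fall outside this rule and were chosen after their values were seen. Alternatives were DESeq2 size factors in edgeR, library totals alone, no low-count filter, DESeq2 1.42.0, limma-voom (limma 3.58.1), the replicate number as a block, only the groups compared, each library left out, and, chosen after seeing the data, the longest coding transcript as length. The edgeR, DESeq2 and limma-voom fits were tested on simulated data. Scripts for sequences used Python 3.11.15 with pandas 2.3.3. A few genes that the naming rule picked are not reported here.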

Additional observations from a re-analysis of the deposited data

Results flagged for a closer look

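The effect of siEhd1 differed between resting and LPS-treated cells for 4 integrins by the interaction test of edgeR. The difference in log2 fold change, LPS-treated minus resting, was 0.52 for Itgal (adjusted p = 0.017), 0.35 for Itga6 (adjusted p = 0.013), 0.35 for Itgb5 (adjusted p = 0.0071) and -0.28 for Itga4 (adjusted p = 0.025). Of all genes tested, 3.12% had a higher effect after LPS and 2.93% a lower one. For Itgb5 the 2 effects had opposite signs and were each called. Its call after LPS did not pass in 10 of 14 alternatives, and its resting call did not pass in 2 of 14. For Itgal the resting effect alone was called, for Itga6 the LPS-treated effect alone, and for Itga4 neither. The interaction call of Itga4 was lost in 6 of 19 alternatives and those of Itgal and Itga6 in 1 each, while that of Itgb5 held in all 19.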

How the results depend on the processing

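Of the recomputed changes of single integrins, 679 kept their direction and their side of the threshold, 26 no longer passed, 15 newly passed and 10 changed sign. The changes of sign were all in differences near 0. For Itgam with siEhd1 after LPS the value was 0.00455 with DESeq2 and with DESeq2 size factors in edgeR, 0.00223 in the fit of these groups only, and -0.0600 to 0.0366 with each library left out in turn. Leaving out a library gave -0.0606 to 0.00363 for Itga6 with siEhd1 at rest, -0.0611 to 0.0260 for Itgb1 with LPS and siEhd1, and -0.118 to 0.0128 for Itgb2 with LPS and siControl.

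The counts of integrins called moved as follows. With siEhd1 after LPS the lower count was 2 with DESeq2, 1 with library totals alone, 1 with limma-voom and 0 to 1 with each library left out. Over all genes those fits called 445, 492, 476 and 303 to 477 lower. At rest the lower count was 1 to 2 with each library left out, beside 1148 to 1503 over all genes. For the difference between states the lower count was 2 with library totals alone, 0 with a replicate block within state and 0 to 1 with each library left out, and the higher count 1 to 3. Over all genes 446 were lower with library totals alone. With each library left out 209 to 418 of all genes were lower and 243 to 429 higher. The cause was not tested. All-gene counts that moved by over 1.5 times beyond those given above were 232 lower differences with a replicate block within state (356 without).

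Deviations of same-numbered libraries from their group means had correlations of -0.216 to 0.251, over 0.1 in 2 of 18 pairs. Libraries with different numbers were not compared, so these values cannot decide whether the numbers pair libraries. The labels do not say that they do, and the main fit used no block. With the replicate block the calls with siEhd1 were 4 higher and 2 lower at rest and 2 higher after LPS, where Itgb5 was lost (adjusted p = 0.077). With LPS and siControl they were 4 higher and 4 lower, where Itgb7 was lost (adjusted p = 0.056). Of the 12164 genes tested, this fit called 1595 higher and 1569 lower with siEhd1 at rest. It called 459 higher and 425 lower after LPS, and 4178 and 4083 for LPS with siControl. All 10 genes had over 1000 counts in every library.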
